A study of Mus musculus with 15 samples.

Results

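miR-23, miR-27 and miR-24 are made together from clustered hairpins at 2 places in the mouse genome, called here the a cluster and the b cluster. The 8 members described were the mouse (mmu) miRNAs mmu-miR-23a-3p, mmu-miR-27a-3p and mmu-miR-27a-5p (a cluster), mmu-miR-23b-3p, mmu-miR-23b-5p, mmu-miR-27b-3p and mmu-miR-27b-5p (b cluster), and mmu-miR-24-3p, which both clusters encode. The prefix is left out below. They were found by exact name among 1424 mature miRNAs measured by small RNA sequencing of whole mouse lung. All 8 members passed the filter on low values, as did 818 miRNAs in all. Another 6 products of the same hairpins, or of hairpins on the opposite strand, were in the table and are given as context.

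The study compared wild-type (WT) C57BL/6 mice with mice homozygous for the R213G form of extracellular superoxide dismutase (EC-SOD) on the same background, all 11 weeks old. EC-SOD removes superoxide outside cells, and the R213G substitution weakens its hold on the matrix. Mice of both sexes received PBS or bleomycin into the trachea (100 uL at 1 U per mL, given as a single dose), and lungs were taken at day 7. Bleomycin is a DNA-damaging drug that injures the lung. PBS groups had 3 WT and 4 R213G libraries, and bleomycin groups had 4 of each genotype. The sex of each mouse was not given, nor whether each library came from a separate mouse, so p-values measure the spread between these libraries. In such bulk samples fewer cells of a type and less RNA per cell cannot be told apart.

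A microRNA is cut from a hairpin, and either arm, named 5p or 3p by its position, can be loaded into Argonaute to repress messenger RNAs that pair with its seed, bases 2 to 8. miR-23 and miR-27 are abundant in endothelium and are known as regulators of blood vessel growth. miR-24 is known to restrain endothelial survival and growth, and miR-27a-3p is known to limit the change of lung fibroblasts into myofibroblasts. The 2 clusters are paralogs whose 3p arms are near copies and whose 5p arms differ more.

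The mature sequences are shown because they set which products can be told apart and which share a seed. They are RefSeq entries on GRCm38.p6, written 5′ to 3′, with the seed in capitals; 7 of the 8 members were matched, all but miR-23b-3p. The 3p arms and miR-24-3p were as follows.
miR-23a-3p: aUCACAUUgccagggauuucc
miR-27a-3p: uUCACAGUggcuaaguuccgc
miR-27b-3p: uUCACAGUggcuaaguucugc
miR-24-3p: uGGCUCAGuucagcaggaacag

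The 5p arms of the members, and of the miR-24 hairpins, are set out in pairs of a cluster and b cluster.
miR-27a-5p: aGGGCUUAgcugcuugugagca
miR-27b-5p: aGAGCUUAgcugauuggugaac
miR-23a-5p: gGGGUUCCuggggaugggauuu
miR-23b-5p: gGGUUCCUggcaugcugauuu
miR-24-2-5p: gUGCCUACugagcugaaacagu
miR-24-1-5p: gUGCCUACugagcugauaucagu

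miR-27a-3p and miR-27b-3p shared their seed and 20 of 21 bases, and differed by C19U, counted from the 5′ end with the a cluster base first. With a difference of 1 base, the values of these near copies are uncertain to the extent that reads could have been assigned to either, and the sources used here do not say how the authors assigned such reads. The 5p arms of miR-27 differed at 8 of 22 bases, among them G3A inside the seed, and are easier to separate. Both miR-24 hairpins encode an identical miR-24-3p, so its value is the sum of both clusters. miR-24-2-5p (a cluster) and miR-24-1-5p (b cluster) differed at 5 of 22 compared bases, all outside the shared seed. Bases were compared position by position without gaps, so 1 inserted base can count as several differences in these 5p arms.

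On GRCm38.p6 (the sources used here name no build for the deposited table), the a cluster lies on the plus strand at chr8:84208518-84208921 and holds Mir23a, Mir27a and Mir24-2 within 404 bases. It lies outside protein-coding genes in the GENCODE annotation, and its last bases overlap the first exon bases of the lincRNA Gm26532. The b cluster lies on the plus strand at chr13:63300484-63301275 and holds Mir23b, Mir27b and Mir24-1 within 792 bases. It lies inside the protein-coding gene 2010111I01Rik on the same strand, with Fancc on the opposite strand. Mir23b overlapped no annotated exon, whereas Mir27b and Mir24-1 overlapped exons of transcripts of the host gene that are annotated without a full coding product.

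miR-27b-3p was by far the most abundant member. Levels are given as deposited, on a scale taken to be log2 of 1 plus a normalized value. The name of the deposited data mentions RPKM, a read count divided by library size and length. Whether these values were divided by length was not determined (the members printed are 21 or 22 bases long). Averaged over all 15 libraries, miR-27b-3p stood at 20.19, rank 6 of 1424 miRNAs, and alone made up 5.38% to 6.23% of a library's summed values by group mean. It was followed by miR-27a-3p at 16.93 (rank 24), miR-24-3p at 16.45 (rank 34), miR-23b-3p at 16.02 (rank 42) and miR-23a-3p at 15.41 (rank 57). The 5p arms lay far below, with miR-27b-5p at 10.59 (rank 177), miR-27a-5p at 8.80 (rank 257) and miR-23b-5p at 4.11 (rank 561).

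Each neighbour in this order kept its place in 15 of 15 libraries. The closest neighbours were miR-27a-3p and miR-24-3p, which differed by 0.48 ± 0.27 (SD, n = 15) on the log2 scale and by as little as 0.01 in 1 library. The 8 members together made up 7.11% ± 0.30 (SD, n = 3) of the summed values in WT PBS, 7.72% ± 0.38 (n = 4) in WT bleomycin, 7.002% ± 0.39 (n = 4) in R213G PBS and 7.30% ± 0.61 (n = 4) in R213G bleomycin. Most of this came from the b cluster, with group means of 5.70% to 6.54%, against 0.76% to 0.87% for the a cluster.

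The order of the clusters was not the same for every product. For miR-23-3p, miR-27-3p and miR-27-5p the b cluster product was the more abundant in every library, but among the miR-24 5p arms the a cluster product, miR-24-2-5p (mean 14.40), exceeded the b cluster product, miR-24-1-5p (mean 9.16), in every library. The ratio of miR-24-2-5p to miR-24-1-5p was between 35.9-fold and 40.4-fold by group mean. For the least abundant pair, the a cluster product miR-23a-5p (mean 4.32) was above miR-23b-5p by mean log2 ratios of 0.29 in WT PBS, 0.38 in R213G PBS and 0.51 in R213G bleomycin. It was below it in WT bleomycin (-0.34).

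**Figure D1:**
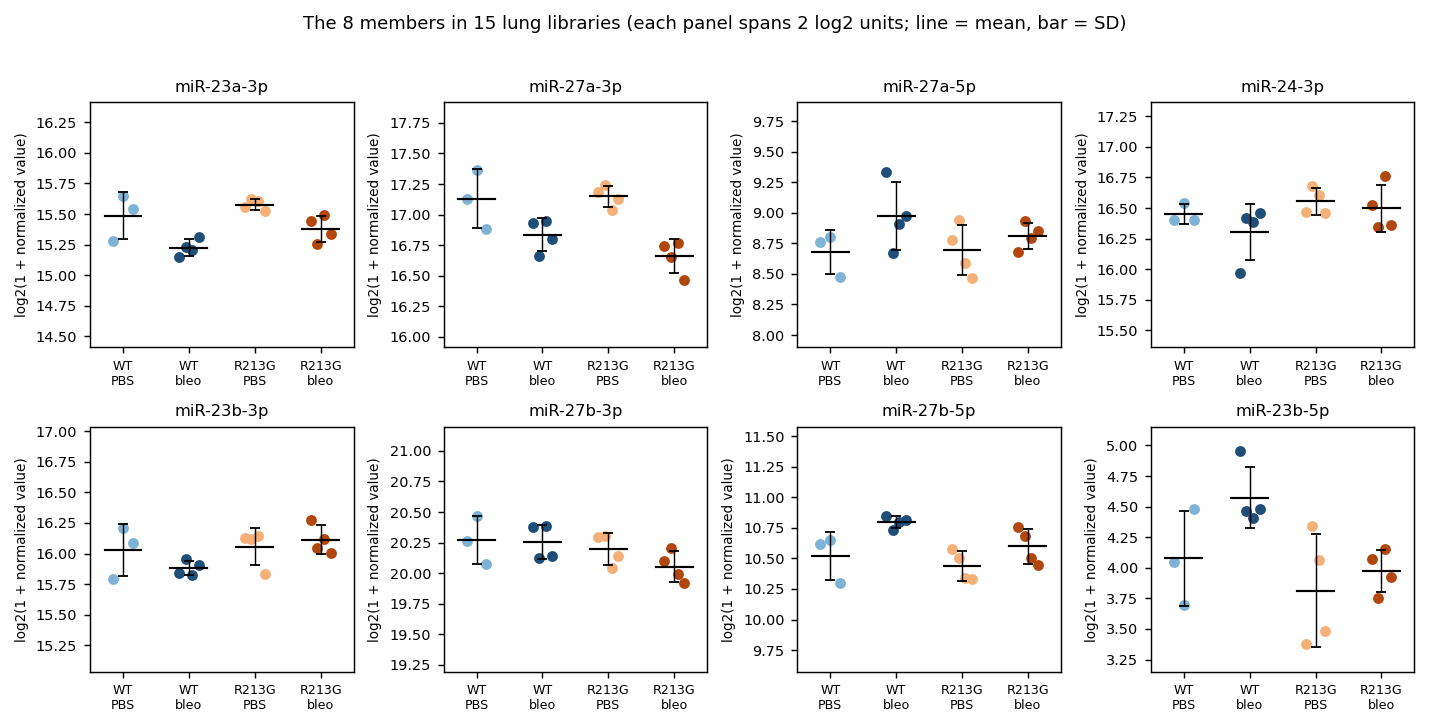
Level of each member (y axis, log2 of 1 plus the normalized value) in the 15 libraries (points) by group (x axis), with the mean (line) and SD (bar). Every panel spans 2 log2 units; miR-27a-3p in R213G bleomycin libraries lies between 16.47 and 16.77, below all R213G PBS libraries at 17.04 to 17.24.

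Bleomycin was compared with PBS first within each genotype. On the deposited scale miR-27a-3p fell after bleomycin in R213G lungs, and no other member passed the test in either genotype. With libraries scaled to equal sums, miR-27b-5p also passed in both genotypes and miR-27a-5p in WT, all higher. The deposited scale gives 0 of 8 members in WT, where 26.7% of the 818 miRNAs tested were called (16.4% higher and 10.3% lower). In R213G it gives 1 of 8, where 42.1% were called (22.2% higher and 19.8% lower). Neither share of members was above the share of all miRNAs tested. The calls split into 134 higher and 84 lower in WT and 182 and 162 in R213G. The median log2 difference of the members was -0.08 in WT and -0.00 in R213G, and that of all miRNAs tested was 0.05 in both.

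The direction of small changes depended on the scaling, so the share of a library's summed values is given beside the deposited values. Scaling libraries to equal sums, an alternative chosen after seeing the data, shifted the differences of all miRNAs by a median of 0.17 in WT and 0.21 in R213G. Calls then split into 190 higher and 39 lower in WT and 236 and 79 in R213G. With equal library medians, which shifted the differences by a median of -0.12 and -0.13, they split into 110 and 121 in WT and 148 and 199 in R213G. Quantile normalization shifted them by -0.15 and -0.13, with splits of 114 and 108 in WT and 162 and 173 in R213G.

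miR-27a-3p, the a cluster copy of the miR-27 guide arm, was at 17.19, 17.24, 17.04 and 17.13 in the R213G PBS libraries and at 16.75, 16.66, 16.77 and 16.47 in the R213G bleomycin libraries. The groups did not overlap, as was so for 17.4% of miRNAs in this direction. The log2 difference was -0.49 ± 0.11 (SE; limma, Benjamini-Hochberg adjusted p = 0.0019), a 1.40-fold decrease. As a share of the summed values it was 0.651% ± 0.031 (SD, n = 4) after PBS and 0.538% ± 0.032 (SD, n = 4) after bleomycin, again without overlap, as was so for 8.07% of miRNAs in this direction on that scale. With equal library sums the difference was -0.28 (limma adjusted p = 0.0103), still past the threshold. The authors' deposited table gives the same comparison q-values of 0.0259 by their parametric test and 0.109 by their rank test. The call ended with quantile normalization, which forces every library to the same distribution and left a log2 difference of -0.13 (limma adjusted p = 0.286).

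In WT lungs miR-27a-3p stood at 17.13, 17.37 and 16.89 after PBS and at 16.93, 16.66, 16.95 and 16.80 after bleomycin. The groups overlapped, with WT PBS replicate 3 lowest of the PBS libraries. No member lay wholly below its PBS libraries in WT, as 13.6% of miRNAs did on the deposited scale and 7.95% did as a share of the summed values. The log2 difference was -0.29 ± 0.12 (SE; limma adjusted p = 0.0730), and with equal library sums it was -0.12 (adjusted p = 0.302). Leaving out each library in turn gave -0.41 to -0.17 (limma adjusted p from 0.0131 to 0.332). It passed the threshold only without WT PBS replicate 3, at -0.41 (limma adjusted p = 0.0131). On the first principal component of all tested miRNAs, with 44.0% of the variance, WT PBS replicate 3 was at -7.26, the other PBS libraries at -13.69 to -10.23 and the bleomycin libraries at 6.33 to 11.85. The difference between the genotypes' responses of miR-27a-3p was -0.20 (limma interaction term, adjusted p = 0.786), so the responses were not shown to differ.

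miR-23a-3p, the neighbour of miR-27a in the a cluster, was at 15.28, 15.65 and 15.54 in WT PBS and 15.15, 15.23, 15.20 and 15.31 in WT bleomycin. The R213G values were 15.56, 15.62, 15.60 and 15.52 after PBS and 15.44, 15.25, 15.49 and 15.34 after bleomycin. All R213G bleomycin libraries lay below all R213G PBS libraries, as was so for 17.4% of miRNAs. In WT the first PBS library lay within the bleomycin range. The log2 differences were -0.26 (limma adjusted p = 0.0516) in WT and -0.19 (adjusted p = 0.0893) in R213G. Neither passed the threshold as deposited, and both passed with equal library medians (-0.38, adjusted p = 0.0129, and -0.33, adjusted p = 0.0126). As a share of the summed values the R213G means were 0.219% after PBS and 0.222% after bleomycin, so its direction there depends on the scaling (0.02 with equal library sums, adjusted p = 0.882, limma).

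Neither guide arm of the b cluster passed the test after bleomycin on the deposited scale. miR-27b-3p was at 20.27, 20.47 and 20.07 in WT PBS and 20.38, 20.12, 20.38 and 20.14 in WT bleomycin, with a log2 difference of -0.01 (95% interval -0.26 to 0.23). For R213G the values were 20.30, 20.31, 20.04 and 20.14 after PBS and 20.10, 20.21, 19.99 and 19.92 after bleomycin, a difference of -0.14 (95% interval -0.36 to 0.08). The groups overlapped in both genotypes. As a share of the summed values its mean was higher after bleomycin, at 6.23% against 5.58% in WT and 5.68% against 5.38% in R213G, so its direction also depends on the scaling. With equal library sums the differences were 0.16 in WT (limma adjusted p = 0.218) and 0.07 in R213G (adjusted p = 0.505).

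miR-23b-3p, which is close to miR-23a-3p in name and family, was at 15.79, 16.21 and 16.09 in WT PBS and 15.84, 15.95, 15.83 and 15.91 in WT bleomycin. R213G libraries were at 16.13, 16.12, 16.15 and 15.83 after PBS and 16.28, 16.05, 16.12 and 16.01 after bleomycin. Its groups overlapped in both genotypes, with log2 differences of -0.15 in WT (limma adjusted p = 0.341) and 0.05 in R213G (adjusted p = 0.690). As a share of the summed values it was higher in every R213G bleomycin library (0.338% to 0.416%) than in any R213G PBS library (0.266% to 0.333%), as was so for 30.6% of miRNAs. With equal library sums that difference was 0.27 (limma adjusted p = 0.0561), and with quantile normalization it was 0.29 and passed the threshold (adjusted p = 0.0269).

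miR-24-3p, the product of both clusters, was at 16.40, 16.55 and 16.40 in WT PBS and 15.97, 16.42, 16.39 and 16.46 in WT bleomycin. Its R213G values were 16.47, 16.68, 16.61 and 16.46 after PBS and 16.52, 16.35, 16.76 and 16.36 after bleomycin. The groups overlapped in both genotypes, and the differences were -0.14 (limma adjusted p = 0.440) and -0.06 (adjusted p = 0.710). The R213G difference became 0.23 with quantile normalization (limma adjusted p = 0.0475), which turned its sign. As a share of the summed values the R213G libraries overlapped, at 0.390% to 0.469% after PBS and 0.440% to 0.528% after bleomycin (0.16 with equal library sums, limma adjusted p = 0.267).

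The 5p arms among the members, the strands usually discarded when the guide is loaded, had positive differences after bleomycin that did not pass on the deposited scale. The 5p arms of the other products, given below, did not share this direction in every case. miR-27b-5p was at 10.61, 10.65 and 10.30 in WT PBS and 10.85, 10.73, 10.80 and 10.82 in WT bleomycin, and at 10.58, 10.50, 10.34 and 10.33 in R213G PBS and 10.76, 10.68, 10.51 and 10.45 in R213G bleomycin. The WT groups did not overlap, as was so for 18.7% of miRNAs in this direction, and the R213G groups did. The differences were 0.28 in WT (limma adjusted p = 0.0875) and 0.16 in R213G (adjusted p = 0.242).

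The share of miR-27b-5p in the summed values was higher after bleomycin without overlap in both genotypes. It was at 0.00608% to 0.00687% in WT PBS and 0.00838% to 0.00911% in WT bleomycin, and at 0.00586% to 0.00657% in R213G PBS and 0.00690% to 0.00906% in R213G bleomycin. Such separation was seen for 23.3% of miRNAs in WT and 30.6% in R213G. With equal library sums miR-27b-5p passed in both, at 0.45 in WT (limma adjusted p = 0.0074) and 0.37 in R213G (adjusted p = 0.0103).

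miR-27a-5p was at 8.76, 8.80 and 8.47 in WT PBS and 9.34, 8.67, 8.90 and 8.98 in WT bleomycin, with R213G libraries at 8.78, 8.94, 8.59 and 8.47 after PBS and 8.68, 8.93, 8.79 and 8.85 after bleomycin. Its groups overlapped in both genotypes (0.29, limma adjusted p = 0.177, and 0.12, adjusted p = 0.535). Its share of the summed values did not overlap in WT, at 0.00171% to 0.00190% after PBS and 0.00213% to 0.00319% after bleomycin, as was so for 23.3% of miRNAs in this direction. With equal library sums it passed in WT (0.46, limma adjusted p = 0.0335) and did not in R213G (0.33, adjusted p = 0.0742). miR-23b-5p, the least abundant and most variable member, ranged from 3.37 to 4.95 over all libraries. Its differences were 0.50 in WT (limma adjusted p = 0.188) and 0.16 in R213G (adjusted p = 0.633).

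**Figure D2:**
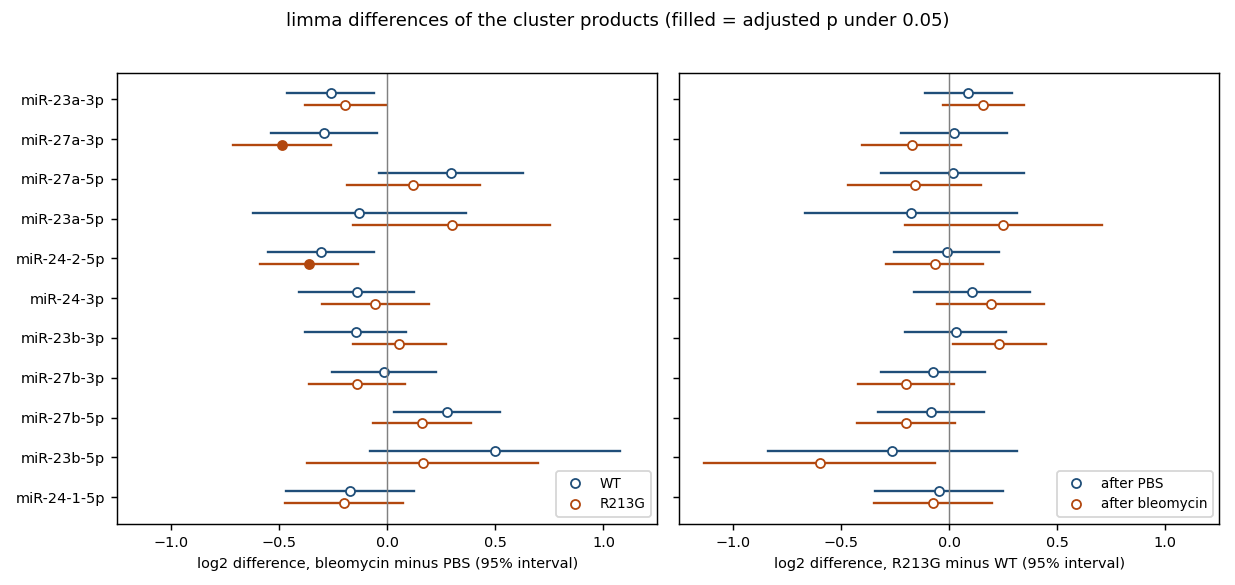
Log2 difference with its 95% interval (x axis) for the 8 members and 3 other products of the same hairpins (y axis), for bleomycin minus PBS in each genotype (left) and R213G minus WT in each treatment (right). Filled points passed the limma threshold, which only miR-27a-3p (-0.49) and miR-24-2-5p (-0.36) did, both in R213G lungs after bleomycin.

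Among the other products, miR-24-2-5p of the a cluster fell after bleomycin in R213G. It was at 14.60, 14.61, 14.62 and 14.47 after PBS and at 14.36, 14.14, 14.27 and 14.06 after bleomycin, without overlap, as was so for 17.4% of miRNAs in this direction. The difference was -0.36 ± 0.11 (SE; limma adjusted p = 0.0122), and it was -0.31 in WT (adjusted p = 0.0583). With quantile normalization the R213G value was -0.26 (limma adjusted p = 0.0930), and with equal library sums it was -0.15 (adjusted p = 0.178), so both ended the call. Its b cluster counterpart miR-24-1-5p gave -0.17 in WT (adjusted p = 0.385) and -0.20 in R213G (adjusted p = 0.226). miR-23a-5p gave -0.13 in WT (limma adjusted p = 0.713) and 0.30 in R213G (adjusted p = 0.285).

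The miR-3074 hairpins lie opposite the miR-24 hairpins. miR-3074-1-3p fell in R213G by 0.72 on the log2 scale (limma adjusted p = 0.00186), from 7.34, 7.22, 6.74 and 7.07 to 6.19, 6.47, 6.58 and 6.24, and gave -0.27 in WT (adjusted p = 0.248). Its a cluster counterpart miR-3074-2-3p gave -0.20 in WT (limma adjusted p = 0.527) and -0.09 in R213G (adjusted p = 0.729). miR-3074-5p did not pass in either genotype (limma adjusted p = 0.670 and 0.308), and passed in R213G with equal library sums (0.42, adjusted p = 0.0367). miR-3074-5p and miR-24-3p are reverse complements over 20 bases, as are miR-3074-2-3p and miR-24-2-5p. The sources used here do not say whether reads were counted by strand, so the values within each pair cannot be told apart with certainty.

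The clusters were then compared inside each library, as the log2 ratio of an a cluster product to its b cluster counterpart, which no library-wide scaling factor can change. After bleomycin both 3p guide arms shifted toward the b cluster. The 10 ratios formed for the clusters, each asked about bleomycin and about genotype, gave 20 exact two-sided permutation tests within strata, with 2450 arrangements each and a smallest possible p of 0.000408.

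The ratio of miR-27a-3p to miR-27b-3p was -3.13, -3.10 and -3.19 in WT PBS and -3.44, -3.46, -3.43 and -3.35 in WT bleomycin. The R213G values were -3.11, -3.06, -2.999 and -3.01 after PBS and -3.35, -3.55, -3.22 and -3.45 after bleomycin. Every bleomycin library lay below every PBS library in both genotypes, which means that miR-27b-3p went from 8.82-fold to 10.7-fold above miR-27a-3p in WT and from 8.26-fold to 10.5-fold in R213G. The ratio fell by 0.31 on the log2 scale (95% interval by inverting the test, -0.40 to -0.23; exact permutation test, adjusted p = 0.00408), by 0.28 in WT and by 0.35 in R213G.

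The ratio of miR-23a-3p to miR-23b-3p was -0.51, -0.56 and -0.55 in WT PBS and -0.69, -0.72, -0.62 and -0.59 in WT bleomycin. For R213G the values were -0.57, -0.50, -0.54 and -0.31 after PBS and -0.83, -0.79, -0.63 and -0.67 after bleomycin. The groups again did not overlap in either genotype. The ratio fell by 0.18 (95% interval -0.28 to -0.09; exact permutation test, adjusted p = 0.00408), by 0.12 in WT and by 0.25 in R213G. No sequence was matched for miR-23b-3p, and how reads of these near copies were assigned is not known either.

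Such shifts were not rare among miRNAs paired by name. Over 62 same-strand pairs whose names differ only by a and b, these included, 19.4% had ratios lower after bleomycin without overlap in both genotypes. Another 6.45% had them higher. Whether each pair is a pair of paralogs was not checked. The median absolute change over those pairs was 0.25, so the change of miR-27 was above it and that of miR-23 below it. With quantile normalization, an alternative chosen after seeing the data, the miR-27 change was -0.11 (exact permutation test, adjusted p = 0.419) and the miR-23 change -0.14 (adjusted p = 0.202). Neither then passed the threshold.

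No such shift was detected for the 5p arms. The ratio of miR-27a-5p to miR-27b-5p was -1.85, -1.85 and -1.83 in WT PBS and -1.51, -2.06, -1.89 and -1.84 in WT bleomycin, and -1.80, -1.56, -1.75 and -1.86 in R213G PBS and -2.08, -1.75, -1.71 and -1.60 in R213G bleomycin. The groups overlapped, and the change was -0.01 (95% interval -0.20 to 0.18; exact permutation test, adjusted p = 0.952). The change of miR-24-2-5p relative to miR-24-1-5p was -0.15 (95% interval -0.30 to 0.00; adjusted p = 0.123, exact permutation test), and that of miR-23a-5p relative to miR-23b-5p was -0.25 (95% interval -0.74 to 0.26; adjusted p = 0.458).

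**Figure D3:**
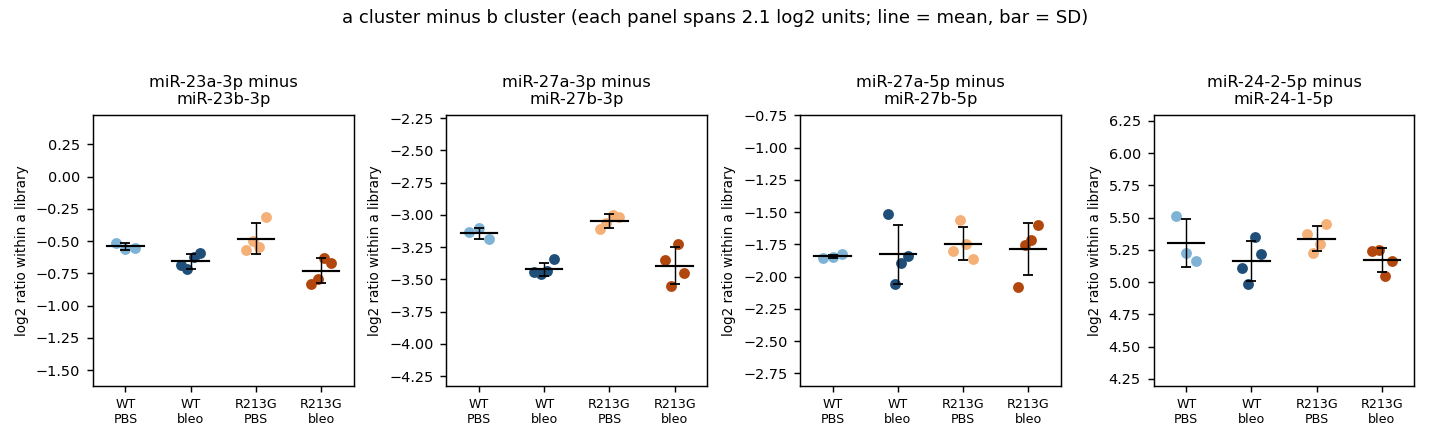
Log2 ratio of an a cluster product to its b cluster counterpart within each library (y axis), by group (x axis), with the mean (line) and SD (bar). For miR-23-3p and miR-27-3p every bleomycin library lies below every PBS library of its genotype, while the miR-27-5p groups overlap.

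The arms of a single hairpin also changed in proportion. The 3p arm of miR-27a fell relative to its 5p arm after bleomycin, and so did that of miR-27b. The log2 ratio of miR-27a-3p to miR-27a-5p was 8.37, 8.56 and 8.41 in WT PBS and 7.60, 7.99, 8.05 and 7.82 in WT bleomycin. R213G libraries were at 8.41, 8.31, 8.45 and 8.66 after PBS and 8.07, 7.73, 7.98 and 7.62 after bleomycin. The groups did not overlap in either genotype, and the mean excess of the 3p arm went from 350-fold to 233-fold in WT and from 351-fold to 230-fold in R213G. The ratio fell by 0.60 (95% interval -0.79 to -0.41; exact permutation test, adjusted p = 0.00408).

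For miR-27b the ratio was 9.65, 9.82 and 9.78 in WT PBS and 9.53, 9.39, 9.59 and 9.33 in WT bleomycin. Its R213G values were 9.72, 9.80, 9.70 and 9.81 after PBS and 9.34, 9.53, 9.49 and 9.47 after bleomycin, again without overlap in either genotype. The ratio fell by 0.30 (95% interval -0.40 to -0.19; exact permutation test, adjusted p = 0.00408), with near-equal changes of -0.29 in WT and -0.30 in R213G. The change was larger for miR-27a than for miR-27b by 0.30 (interval of the difference -0.52 to -0.08, exact permutation test, unadjusted p = 0.00898). This test was added after the values were seen. By construction its value is the change in the a to b ratio of the guide arms less that of the opposite arms. Both of those changes are given above, so the test restates them and is not a separate result about strands.

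Among 234 hairpins with both arms tested, these included, 5.98% had the 3p to 5p ratio lower after bleomycin without overlap in both genotypes and 2.99% had it higher. The median change was -0.07 and the median absolute change 0.34. miR-27a ranked 29 and miR-27b ranked 75 of 234 from the lowest change, so other hairpins shifted as much or more. With quantile normalization the changes were -0.31 for miR-27a (exact permutation test, adjusted p = 0.0898) and -0.15 for miR-27b (adjusted p = 0.295), and neither passed.

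The strand ratio of miR-23b changed by -0.38 after bleomycin (95% interval -0.79 to 0.02; exact permutation test, adjusted p = 0.133) and did not pass. Nor did the ratios between neighbours on the same precursor. miR-23a-3p against miR-27a-3p changed by 0.16 (95% interval -0.05 to 0.36; exact permutation test, adjusted p = 0.194), by 0.03 in WT and by 0.29 in R213G, where the bleomycin libraries lay above the PBS libraries without overlap. How often other neighbour pairs separate in this way was not computed. miR-23b-3p against miR-27b-3p changed by 0.03 (95% interval -0.21 to 0.27; exact permutation test, adjusted p = 0.952), with values of -0.13 in WT and 0.20 in R213G and overlapping groups in both. Whether the genotypes differ in these changes was not tested.

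**Figure D4:**
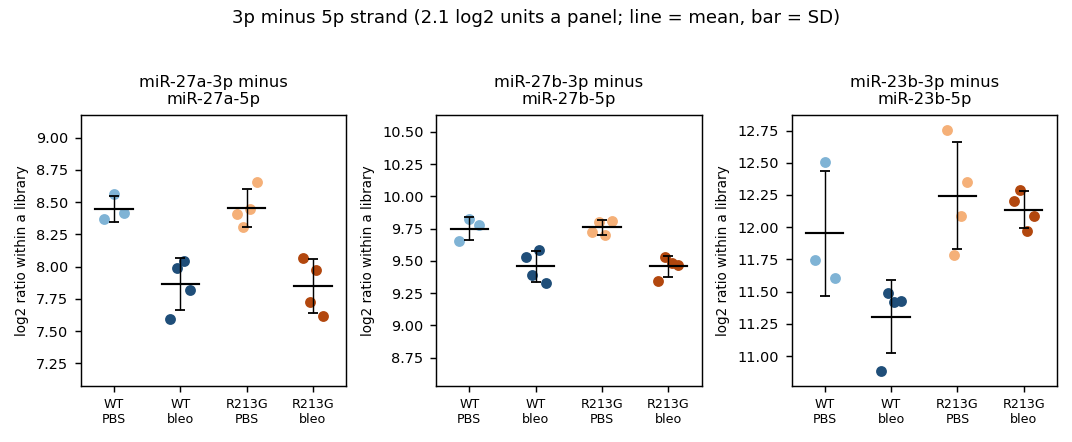
Log2 ratio of the 3p arm to the 5p arm of miR-27a, miR-27b and miR-23b within each library (y axis), by group (x axis), with the mean (line) and SD (bar). For miR-27a and miR-27b every bleomycin library lies below every PBS library of its genotype; for miR-23b the R213G groups overlap.

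The R213G and WT genotypes were compared within each treatment. After PBS 0 of 8 members passed (0% of 818 miRNAs were called by limma, and 44 had an unadjusted p under 0.05, none of them members). The groups of every member overlapped, while 4.16% of miRNAs were higher and 2.69% lower without overlap. After bleomycin again 0 of 8 passed (0% called, 97 miRNAs with an unadjusted p under 0.05, 2 of them members). Weighting libraries by their quality called 2 miRNAs after bleomycin, neither a member. The differences between responses likewise gave 0 of 8 (0% called, 65 with an unadjusted p under 0.05, none of them members).

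The 2 members with the smallest unadjusted p after bleomycin came from the same hairpin and lay in opposite directions. miR-23b-3p was higher in every R213G bleomycin library (16.28, 16.05, 16.12 and 16.01) than in any WT bleomycin library (15.84, 15.95, 15.83 and 15.91), a log2 difference of 0.23 (95% interval 0.01 to 0.45; limma adjusted p = 0.387). Such separation in this direction was seen for 3.06% of miRNAs. miR-23b-5p was at 4.07, 3.75, 4.15 and 3.92 in R213G bleomycin and at 4.95, 4.46, 4.40 and 4.48 in WT bleomycin, a difference of -0.60 (95% interval -1.13 to -0.07; limma adjusted p = 0.387). Separation in that direction was seen for 2.44% of miRNAs. The remaining 6 members overlapped between genotypes after bleomycin.

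The miR-23b strand ratio is the difference of miR-23b-3p and miR-23b-5p, so it had to separate after bleomycin as well. How many other hairpins separate between genotypes was not computed. The ratio was at 12.21, 12.29, 11.97 and 12.08 in R213G and 10.89, 11.49, 11.42 and 11.43 in WT. Over both treatments its genotype difference was 0.56 (exact permutation test, adjusted p = 0.0669), the smallest adjusted p of the 10 genotype tests on ratios, and none passed. It passed without WT PBS replicate 2 (0.70, adjusted p = 0.00762) or without R213G PBS replicate 2 (0.64, adjusted p = 0.0286). The ratios of miR-23a-3p to miR-27a-3p (0.20, adjusted p = 0.123) and of miR-23b-3p to miR-27b-3p (0.27, adjusted p = 0.101) did not pass with all libraries and passed without WT PBS replicate 3, at 0.27 (adjusted p = 0.00635) and 0.33 (adjusted p = 0.0254) by the same exact permutation test.

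The members were also compared across the 15 libraries. After group means were removed, Pearson's r was 0.84 between the paralogs miR-27a-3p and miR-27b-3p, 0.79 between miR-23a-3p and miR-23b-3p, and 0.53 between miR-27a-5p and miR-27b-5p. Between neighbours in a cluster it was 0.21 for miR-23a-3p and miR-27a-3p and 0.10 for miR-23b-3p and miR-27b-3p. With miR-24-3p, which both clusters encode, it was 0.65 for miR-23a-3p, 0.40 for miR-23b-3p, 0.17 for miR-27a-3p and -0.19 for miR-27b-3p. These are descriptions over 15 libraries whose values share a library and its scaling, and near copies can share reads. The non-members most like the a cluster mean of miR-23a-3p and miR-27a-3p were miR-30c-5p (r = 0.89), let-7e-3p (0.83) and miR-361-5p (0.82). Those most like the b cluster mean of miR-23b-3p and miR-27b-3p were miR-16-5p (0.78), miR-542-5p (0.73) and miR-26a-5p (0.72). Those most like miR-24-3p were miR-152-3p (0.94), miR-195a-5p (0.93) and its antisense partner miR-3074-5p (0.93).

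The members are set beside other miRNAs linked to the same biology. On the deposited scale, 1 of 12 endothelial and angiogenic miRNAs tested rose and 3 fell in WT lungs, leaving 8 short of the threshold. R213G lungs had 2 that rose, 5 that fell and 5 short of it. Their median differences were -0.15 and -0.08. Among all 818 miRNAs, the called share was 26.7% in WT (16.4% higher, 10.3% lower) and 42.1% in R213G (22.2% higher, 19.8% lower). Whether the list departs from these shares was not tested in either genotype. miR-100-5p fell in both (by 0.47 and by 0.50 on the log2 scale), as did miR-10a-5p (by 0.57 and by 0.40), and miR-218-5p rose in both (0.47 and 0.47). miR-92a-3p, known to restrain vessel growth, fell in R213G by 0.62 (limma adjusted p = 0.000709) and gave -0.31 in WT (adjusted p = 0.0862).

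Of 20 miRNAs linked to transforming growth factor beta and fibrosis, WT lungs had 6 that rose and 7 that fell, and R213G lungs 6 and 9. Their medians were -0.23 and -0.21. Of all miRNAs tested, 26.7% were called in WT and 42.1% in R213G. miR-21a-5p, known for promoting fibrosis, rose by 1.94 and 2.02, and miR-21a-3p by 2.50 and 2.20. miR-214-3p, made by fibroblasts, rose by 0.71 and 0.86, and miR-26a-5p, known to restrain fibrosis, fell by 0.58 and by 0.84. At -0.49, the difference of miR-27a-3p in R213G was smaller in size than the R213G values of these 4 miRNAs, a comparison made without a test. The 4 were named for the smallest p in their list, which favours large changes. Others of the list gave R213G values smaller in size than -0.49, such as miR-29a-3p (-0.43) and miR-143-3p (-0.32). Still others gave larger ones, such as miR-133a-3p (-2.18) and miR-155-5p (1.00).

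Markers of cell types moved with treatment, and their part in the members' values was not tested. The endothelial markers miR-126a-3p and miR-126a-5p were present at a summed level of 19.63 to 20.24 on the log2 scale in all libraries. In R213G miR-126a-3p fell by 0.41 (limma adjusted p = 0.0188), and it gave -0.13 in WT (adjusted p = 0.528). The other strand, miR-126a-5p, went the other way without passing. It gave 0.15 in R213G (limma adjusted p = 0.327) and 0.26 in WT (adjusted p = 0.148). Of 6 myeloid and leukocyte markers, 5 rose in WT and 4 rose in R213G, where 16.4% and 22.2% of all miRNAs tested rose. Their summed levels were 15.71 to 15.96 in WT PBS, 16.32 to 16.91 in WT bleomycin, 16.14 to 16.27 in R213G PBS and 16.36 to 16.55 in R213G bleomycin.

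Some markers of other lists were called as well. Of all miRNAs tested, 10.3% fell in WT and 19.8% in R213G, while 16.4% and 22.2% rose. Of 6 epithelial markers 1 fell in WT and 4 fell in R213G, of 4 red cell markers 3 fell in WT and 2 in R213G, and of 5 striated muscle markers 2 fell in WT and 3 in R213G. Of 4 smooth muscle and fibroblast markers 2 rose and 1 fell in each genotype, and of 2 lymphocyte markers 1 fell in R213G and none passed in WT. No marker was at 0 in any library.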

How the data were processed

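Small RNA libraries were made by the authors from total RNA of whole lungs flushed with PBS, per the labels' protocols. Bowtie2 2.3.2, SAMtools 1.9 and edgeR are named in the submitters' processing notes. The name of the deposited data mentions miRBase. The sources used here do not name the genome build, the miRBase release or the alignment settings. The deposited table holds log2 values per library. From the values they were taken to be log2 of 1 plus a normalized value. The authors do not state this, and the name of the deposited data mentions RPKM. Antilogs summed to between 18087289.8 and 24759615.3 per library. Read counts could not be recovered, so depth is unknown and no count model was run. The authors' deposited p-values and q-values were used only where named.

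Members and lists were chosen with earlier results of these data known. One limma 3.58.1 model (R 4.3.3, intensity trend) with a mean per group was fitted to all 818 miRNAs above log2(1 + 5) in at least 3 of 15 libraries, with Benjamini-Hochberg adjustment within each of 5 contrasts and a threshold of 0.05. Intervals are 95%. Ratios within a library were tested by exact permutation over libraries, adjusted over 20 tests. Scripts were tested on simulated data. The text names all 8 members, the other products of their hairpins, up to 4 miRNAs of each list by smallest p over the bleomycin responses, and the 3 most similar miRNAs for each pattern by Pearson's r. Alternatives covered scaling (equal sums added after seeing the data), filter, pseudocount, trend, library weights, the groups fitted, the replicate number, the threshold, medians and leaving out each library.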

Additional observations from a re-analysis of the deposited data

Results flagged for a closer look

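Among 24 groups of 4 libraries tested for a library far from the others (8 members by 3 groups), 3 held one, against about 1 in 20 by chance. miR-23b-3p was at 15.83 in R213G PBS replicate 4, with the other 3 libraries at 16.12 to 16.15. miR-23b-5p was at 4.95 in WT bleomycin replicate 1, with the others at 4.40 to 4.48. miR-24-3p was at 15.97 in that same library, with the others at 16.39 to 16.46.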

How the results depend on the processing

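In R213G the fall of miR-27a-3p held without each library in turn (-0.53 to -0.42, limma adjusted p from 0.000793 to 0.00843), and so did the 4 ratio calls (miR-23 a to b -0.20 to -0.15, miR-27 a to b -0.34 to -0.29, strand ratio -0.63 to -0.55 for miR-27a and -0.32 to -0.27 for miR-27b). Quantile normalization ended all 5, leaving 0 cluster ratios and 0 strand or neighbour ratios called, and turned miR-24-3p in R213G to 0.23; the cause was not tested.

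Members called in WT numbered 0 as deposited, 1 with equal library medians (miR-23a-3p; 28.2% of all miRNAs were called), 1 with library weights (miR-27a-3p, -0.37; 32.6%), 2 with equal library sums (miR-27a-5p and miR-27b-5p, higher; 28%), 3 at an adjusted p under 0.1 (34.4%), and 0 to 1 without each library. The 1 was miR-23a-3p without WT PBS replicate 1 (-0.37), R213G bleomycin replicate 2 or R213G bleomycin replicate 3, and miR-27a-3p without WT PBS replicate 3. In R213G 1 member was called as deposited, 2 with equal medians (42.4% of all miRNAs), 2 with quantile normalization (miR-23b-3p and miR-24-3p, both higher; 41%), 2 with equal sums (miR-27a-3p lower, miR-27b-5p higher; 38.5%), 2 with library weights (48%), 2 at an adjusted p under 0.1 (49.9%), and 1 to 1 without each library.

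For R213G against WT, cluster ratios called ranged from 0 to 1 without each library (miR-23a-5p to miR-23b-5p, 0.58, without WT PBS replicate 2) and strand or neighbour ratios from 0 to 2; for bleomycin the latter ranged from 2 to 3. Replicate numbers are shared between groups, but same-numbered libraries deviated together weakly (median r 0.06 over 21 pairs, -0.14 to 0.26), so the numbers were not taken as pairs. A replicate block changed no call: 0 members in WT, 1 in R213G (miR-27a-3p -0.49, limma adjusted p = 0.00321), 2 cluster ratios and 2 strand ratios. Over 90 single results and 2130 recomputed values, 37 calls changed (7 lost, 29 gained, 1 with a change of sign), and 101 values changed sign without being called either way. Depth is unknown, and miR-23b-5p is the member nearest the filter.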
